A study of Mus musculus with 40 samples.

Results

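GABA-A receptors are chloride channels opened by the inhibitory transmitter GABA and built from 5 subunits, and 7 of their subunit genes were followed here: Gabra2, Gabra3, Gabra4, Gabra5, Gabrb1, Gabrb2 and Gabrd. The genes were taken by gene symbol from 32531 gene rows of the count files and are 7 of 19 GABA-A and GABA-rho subunit genes that have a row. All 7 passed the filter on low counts in every comparison. RNA bound to tagged ribosomes was purified from the accumbens nucleus and sequenced. The adult mice were of the Drd1-TRAP CP73 line, a transgenic line with an FVB/N-Swiss Webster origin crossed to C57BL/6 for at least 9 generations, in which the D1 dopamine receptor gene drives an EGFP-tagged ribosomal protein, Rpl10a. The control groups carry the transgene too. The immunopurified RNA comes mainly from D1 medium spiny neurons, the output neurons of the direct striatal pathway, and RNA of other cells can be carried along. In long-access sessions the mice took saline or cocaine intravenously by their own action, and tissue was collected either 24 hours or about 1 month after. The labels split cocaine mice by whether their intake was nonescalating or escalating. At 24 hours there were 6 saline, 9 nonescalating and 5 escalating libraries, and at 1 month 5 saline, 10 nonescalating and 4 escalating libraries. The number of animals per library is not in the labels, and in either nonescalating group some libraries carry a replicate number that another library of the group has too, without a word on whether they share an animal. Hence n is a number of libraries, and p-values measure the spread between these samples, which may be technical.

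A receptor usually joins alpha and beta subunits with either a gamma or the delta subunit. The alpha subunit sets much of the drug sensitivity and, with the beta subunit, the GABA binding site. The partner subunit bears on where the receptor sits. Many gamma-containing receptors gather at synapses, and delta-containing receptors lie outside them and carry a tonic current at low GABA. Medium spiny neurons use GABA themselves and inhibit each other and their targets, and receptors with alpha4 and delta subunits carry tonic inhibition in these cells in mice.

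The 39 libraries used held 3.77 M to 33.9 M gene counts. Library 1595 (nonescalating, 1 month), with 5168 counts of which 1 fell on Gabrb2 and 0 on the other members, was left out by the rule that chose the genes. Markers of D1 medium spiny neurons were present in every library, with a median of 7.54 on the mean log2 CPM scale (CPM, each library's counts scaled to the same total) against 5.05 for D2 markers, 4.11 for vascular, 3.27 for astrocyte and -0.91 for microglia markers. Saline library 1573 (24 hours) had the lowest D1 level (4.96) and the highest astrocyte (5.61), oligodendrocyte (5.96) and vascular (7.22) levels. Its D2 level (5.82) lay above its D1 level. It also had the fewest gene counts (3.77 M), and 70.3% of its uniquely placed reads lay outside features. Libraries 1573, 1574 (saline) and 1582 (nonescalating), all at 24 hours, had stood apart in earlier work on these data, and the comparisons were repeated without them.

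The first question was how much of each subunit the D1 libraries held, which needs a level per gene length. Levels were set as CPM per kilobase of exon, using the union of exons in the GENCODE vM21 annotation. Among members, Gabrb2 was highest with 39.9 ± 11.5 CPM per kilobase (SD, n = 39). Gabra5, Gabrd and Gabra4 followed at 20.5 ± 8.70, 20.5 ± 9.98 and 19.5 ± 5.02 CPM per kilobase. Gabra5 lay above Gabrd in 21 of 39 libraries, and Gabrd above Gabra4 in 20 of 39, so the order of these 3 is not settled. Gabra3 (6.97 ± 3.02) and Gabra2 (4.95 ± 1.60) were lower, with Gabra4 above Gabra3 in 39 of 39 libraries and Gabra3 above Gabra2 in 30 of 39. Gabrb1 was lowest at 2.75 ± 1.01 CPM per kilobase, below Gabra2 in 35 of 39 libraries.

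**Figure D1:**
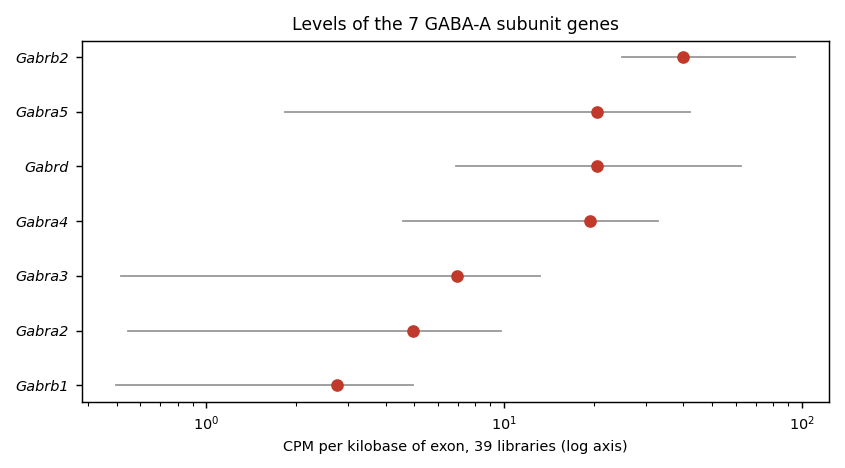
CPM per kilobase of exon (log axis) of the 7 subunit genes, points for the mean over 39 libraries and lines from the lowest to the highest library above 0. Gabrb2 leads at a mean of 39.9 and Gabrb1 is lowest at 2.75.

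Part of this order depends on the length used. Gabrb1 has an exon union of 13838 bases, because a long transcript is annotated, against 6360 for Gabrb2. With the longest transcript as the length, Gabra4 moved to second place among the members at 28.8 CPM per kilobase. With the longest coding sequence, a length chosen after seeing the data, Gabra4 was again second (68.3), and Gabra3 (17.1) rather than Gabrb1 (26.7) was lowest. Gabrb2 led the members under all 3 lengths. With the union of exons, Gabrb2 exceeded Gabrb1 in 39 of 39 libraries, by a median of 13.7-fold (range 8.21 to 67.7), and with the longest coding sequence it did so in 39 of 39 by a median of 5.81-fold (range 3.49 to 28.8).

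Some of the other subunit genes place these levels. With the union of exons the gamma genes Gabrg3 (7.41 ± 3.10 CPM per kilobase) and Gabrg1 (3.42 ± 3.43) lay among the lower members. With the longest coding sequence Gabrg3 had 63.1 ± 26.4, below Gabrb2 and Gabra4 and above the other members. Gabrg1 then had 19.3 ± 19.4, above Gabra3 only. Gabra6, the alpha gene known for cerebellar granule cells, and Gabrp had no count in any library.

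Expressed as shares of the summed CPM per kilobase of the 4 alpha members, Gabra4 made up 38.5% ± 9.61 and Gabra5 38.0% ± 10.1 (SD, n = 39). Gabra3 made up 13.3% ± 5.08 and Gabra2 10.1% ± 4.21. Only these 4 genes enter the sum, and the shares depend on the length used. With the longest coding sequence, a length chosen after seeing the data, they were 43.8% for Gabra4, 27.1% for Gabra5, 18.3% for Gabra2 and 10.8% for Gabra3, so that Gabra4 led and Gabra2 exceeded Gabra3. The group means of the Gabra4 share lay between 36.7% (saline, 24 hours) and 43.3% (escalating, 24 hours), a range smaller than the SD of 16.9 within that escalating group. The shares spread most widely at 24 hours: the Gabra5 share ran from 10.6% to 71.5% in saline libraries, and from 30.6% to 41.9% in saline libraries at 1 month. The ends of that 24-hour range were libraries 1574 and 1575, and the other saline libraries lay between 36.2% and 45.9%.

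**Figure D2:**
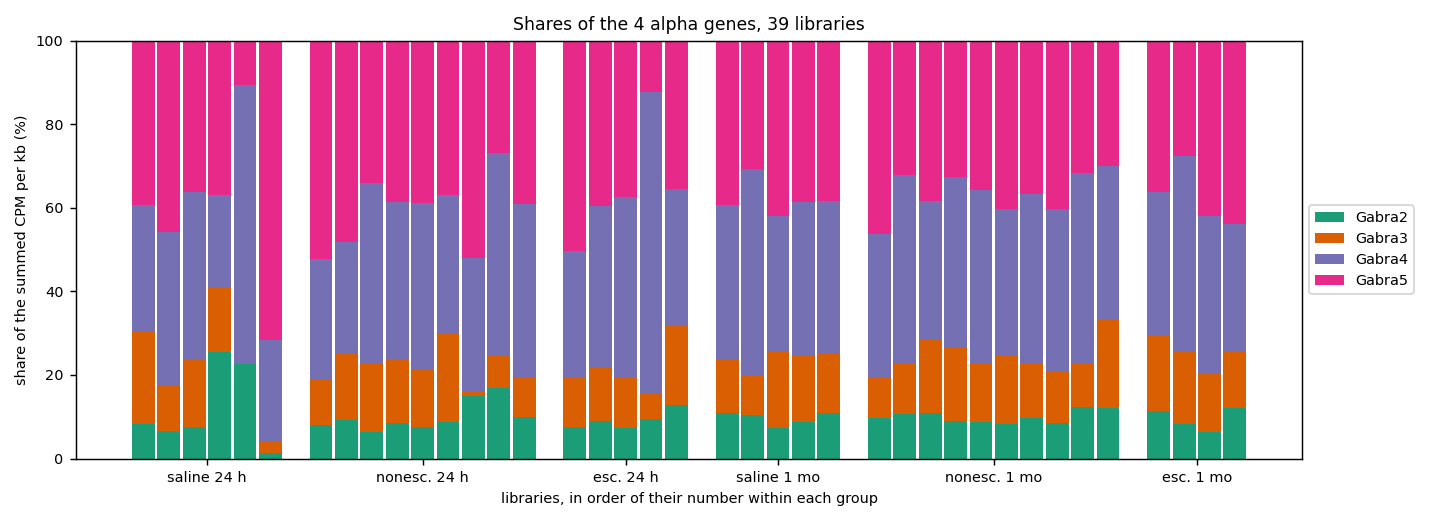
Share of each alpha member in the summed CPM per kilobase of Gabra2, Gabra3, Gabra4 and Gabra5, 1 bar per library, by group. Gabra4 and Gabra5 fill most of each bar, and the bars differ more among saline libraries at 24 hours than among saline libraries at 1 month.

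The delta and alpha4 genes come first, because their subunits join in extrasynaptic receptors. Gabra4 (chromosome 5, 71569749 to 71658308, minus strand, GRCm38) had 88.1 ± 42.8 CPM (SD, n = 6) in saline libraries at 24 hours, with a lowest value of 27.8 in library 1573, a median of 82.1 and a highest of 144. Nonescalating libraries at 24 hours had 127 ± 15.1 CPM (SD, n = 9), from 102 through a median of 126 to 148. The 5 escalating libraries held 132, 103, 108, 129 and 55.6 CPM. At 24 hours the groups overlapped, though 4 of 6 saline libraries lay below every nonescalating library. At 1 month the 5 saline libraries held 128, 200, 142, 128 and 125 CPM, nonescalating libraries 102 to 158 with a median of 114, and the 4 escalating libraries 108, 132, 137 and 83.9. These ranges overlapped too.

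Gabrd (chromosome 4, 155384980 to 155398112, minus strand), which encodes the delta subunit, had 47.4 ± 19.4 CPM in saline libraries at 24 hours (SD, n = 6), from 25.1 to 71.0 with a median of 43.4. Nonescalating libraries had 48.3 ± 13.98 (SD, n = 9), from 30.3 to 71.1 with a median of 47.9. The escalating libraries at 24 hours held 39.9, 52.9, 85.6, 114 and 62.8 CPM, and 2 of these 5 lay above every saline and nonescalating library. At 1 month the saline libraries held 19.7, 107, 64.4, 46.9 and 55.0 CPM, and the escalating libraries 61.5, 63.7, 50.04 and 45.4. Nonescalating libraries at 1 month ran from 25.4 to 179, with a median of 58.4. The groups overlapped at both times.

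Among the other alpha genes, Gabra2 (chromosome 5, 70957597 to 71095849, minus strand), which encodes a mainly synaptic subunit, had 28.4 ± 12.5 CPM in saline libraries at 24 hours (SD, n = 6), from 4.17 to 40.5 with a median of 31.5. Nonescalating libraries had 44.5 ± 16.9 (SD, n = 9), from 24.4 to 74.7 with a median of 40.0. The escalating libraries held 40.9, 30.3, 22.8, 21.0 and 27.5 CPM. The highest nonescalating value came from library 1582, and the lowest saline value, 47 counts, from library 1575. The 1-month means of Gabra2 were 44.98 ± 5.59 CPM for saline (SD, n = 5), 39.2 ± 6.44 for nonescalating (SD, n = 10) and 36.2 ± 8.52 for escalating libraries (SD, n = 4). Gabra3 (chromosome X, 72432681 to 72656848, minus strand), known from monoaminergic and thalamic reticular neurons, had group means between 20.5 ± 17.4 CPM (saline, 24 hours) and 34.5 ± 10.5 (saline, 1 month). It had 0 counts in saline library 1574, where 3 counts would have been 0.495 CPM. Gabra5 (chromosome 7, 57407672 to 57510059, minus strand), whose subunit gives extrasynaptic receptors best known from the hippocampus, had group means between 48.9 ± 36.2 CPM (escalating, 24 hours) and 72.9 ± 29.5 (nonescalating, 24 hours).

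The beta subunits complete the GABA site and are needed for assembly. Gabrb1 (chromosome 5, 71658113 to 72149037, plus strand) had group means from 33.1 ± 16.4 CPM (saline, 24 hours) to 42.1 ± 15.7 (nonescalating, 1 month). Gabrb2 (chromosome 11, 42419757 to 42629028, plus strand) had group means from 223 ± 55.1 CPM (escalating, 24 hours) to 292 ± 164 (saline, 24 hours). The SD of that saline group included 606 CPM in library 1572, while its other 5 libraries lay between 159 and 299. When the 6 groups were ordered by mean for each gene, all 35 gaps between neighbouring groups were smaller than the larger of their SDs. Ordering itself keeps neighbours close, so these gaps do not show whether groups differ. The ends of an order lay further apart, as for Gabra4 with 88.1 ± 42.8 CPM (saline, 24 hours) and 145 ± 31.7 (saline, 1 month).

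**Figure D3:**
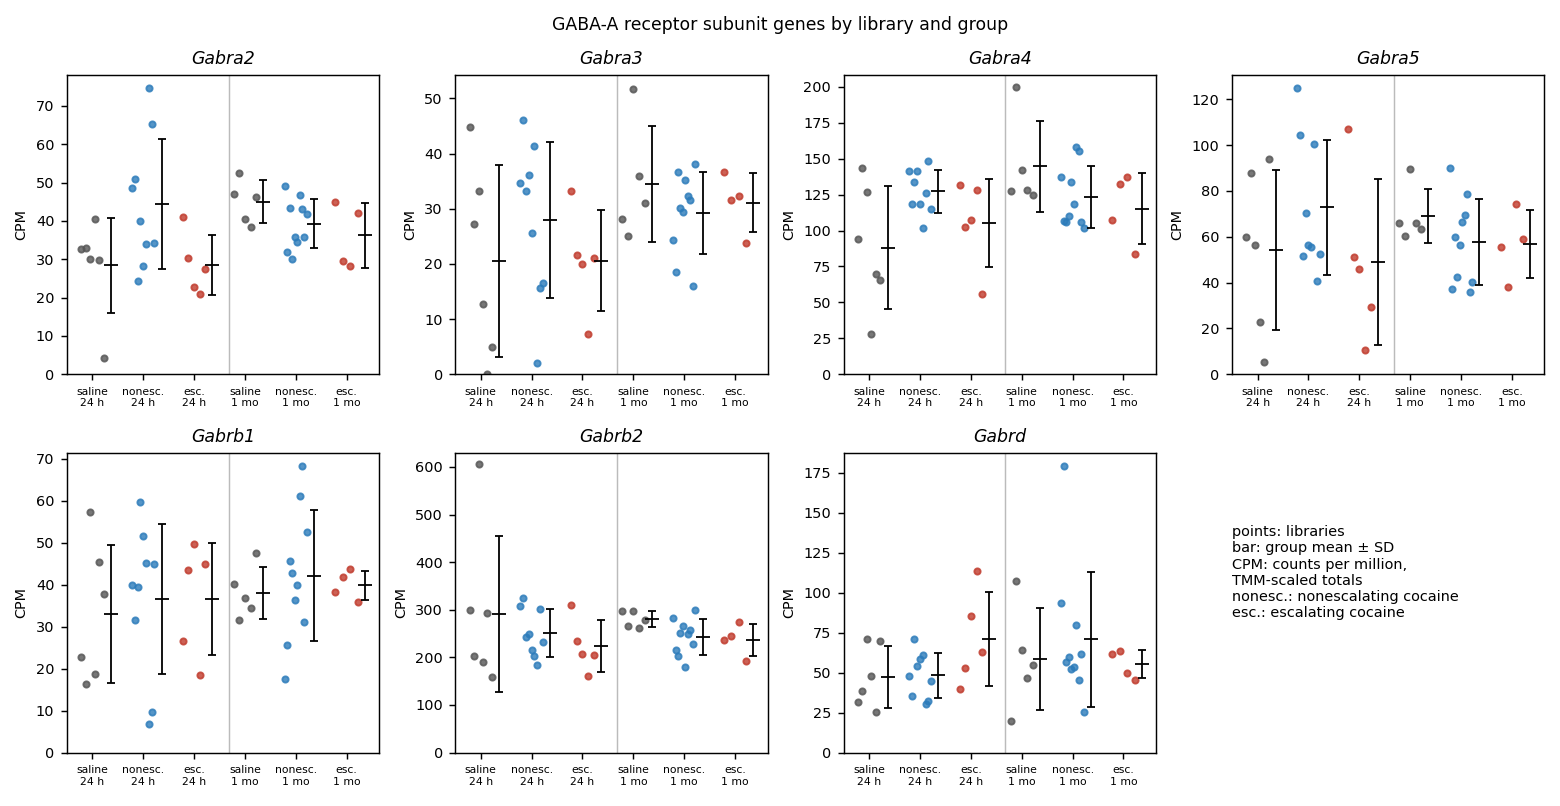
CPM of each subunit gene in every library (points), by group, with the group mean ± SD (bars, n from 4 to 10). The groups overlap in all 7 panels, and the spread is widest in saline libraries at 24 hours for Gabra4 (27.8 to 144) and Gabrb2 (159 to 606).

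In a bulk pull-down, fewer cells of a type and less RNA per cell cannot be told apart. Comparisons between groups used edgeR's quasi-likelihood test, two-sided, adjusted by Benjamini-Hochberg over all genes. At an adjusted p of 0.05 edgeR called no gene in any of the 12 comparisons (0.0% called in each), and 0 of 7 members did. Shares of all genes with an unadjusted p under 0.05, given below, are therefore the background for the members. Members' group ranges overlapped in all 9 pairs of groups compared at 1 time or across time.

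Nonescalating and saline libraries were compared at 24 hours. The log2 fold change of Gabra4 was 0.53 ± 0.27 (SE, 95% interval from -0.03 to 1.09, edgeR adjusted p = 0.521) and that of Gabra2 0.64 ± 0.39 (interval from -0.16 to 1.44, edgeR adjusted p = 0.597). The saline side of Gabra2 includes library 1575 with 4.17 CPM. The estimates of Gabra3 and Gabra5 were 0.44 ± 0.67 and 0.42 ± 0.46, those of Gabrb1 and Gabrd 0.13 ± 0.43 and 0.02 ± 0.31, and that of Gabrb2 -0.22 ± 0.24, or 0.12 ± 0.21 without saline library 1572. Over the members the median was 0.42 with 6 of 7 positive, against a median of -0.03 with 47.6% positive over 14137 genes. 0 of 7 members had an unadjusted p under 0.05, against 9.97% of all genes. Groups without overlap made up 0.0354% of all genes. Without libraries 1573, 1574 and 1582 the members' median was 0.17 with 4 of 7 positive. With both times in 1 fit, 129 of 15579 genes were called and no member.

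Escalating and saline libraries at 24 hours gave the largest member estimate for Gabrd, at 0.57 ± 0.35 (interval from -0.15 to 1.30, edgeR adjusted p = 0.956). Gabrb2 had -0.39 ± 0.28, Gabra4 0.25 ± 0.31, Gabra5 -0.15 ± 0.52 and Gabrb1 0.14 ± 0.49, while Gabra2 (-0.00345 ± 0.44) and Gabra3 (0.01 ± 0.77) lay near 0 with wide errors. Without saline library 1572 Gabrb2 had -0.05 ± 0.24, and without libraries 1573, 1574 and 1582 Gabra4 had -0.03 ± 0.24. 0 of 7 members had an unadjusted p under 0.05, against 5.16% of all genes, and 0.304% of all genes had groups without overlap. In escalating against nonescalating libraries at 24 hours Gabrd was again positive at 0.55 ± 0.32 (interval from -0.10 to 1.21), and Gabra2 (-0.65 ± 0.41), Gabra5 (-0.58 ± 0.49), Gabra3 (-0.44 ± 0.72), Gabra4 (-0.28 ± 0.28) and Gabrb2 (-0.17 ± 0.26) were negative. These comparisons share the escalating libraries. 0 of 7 members had an unadjusted p under 0.05 in the latter, against 3.15% of all genes, and 0.156% had groups without overlap. Vascular markers, whose median level was 5.40 in escalating, 4.44 in saline and 4.14 in nonescalating libraries at 24 hours, differed beside these values, and their part in the result was not tested. All 12 vascular genes of the list had counts, and their summed level ran from 283 to 2641 CPM in escalating, 283 to 3064 in saline and 140.0 to 728 in nonescalating libraries.

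At 1 month most members' estimates against saline were negative. In nonescalating against saline libraries 5 of 7 were negative, with Gabra5 -0.26 ± 0.21, Gabra3 -0.23 ± 0.23, Gabra4 -0.22 ± 0.15, Gabrb2 -0.20 ± 0.12 and Gabra2 -0.19 ± 0.19, while Gabrb1 (0.15 ± 0.24) and Gabrd (0.28 ± 0.34) were positive. Without nonescalating library 1597, which held 179 CPM, Gabrd had 0.000114 ± 0.28. The 95% interval of Gabra4 ran from -0.54 to 0.09. In escalating against saline libraries 6 of 7 were negative, led by Gabra4 (-0.32 ± 0.19, interval from -0.71 to 0.07) and Gabra2 (-0.30 ± 0.23), with Gabrb1 the exception at 0.07 ± 0.30. In escalating against nonescalating libraries 6 of 7 lay between -0.36 and -0.02, and Gabra3 at 0.09 ± 0.25 was positive. Unadjusted p under 0.05 was reached by 0 of 7 members in each, against 4.53%, 4.36% and 2.31% of all genes, and 0.0846%, 1.95% and 0.113% of all genes had groups without overlap. Over all genes, 52.5%, 49.0% and 45.4% of the estimates were positive in these comparisons. All 3 comparisons draw on the same 19 libraries.

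**Figure D4:**
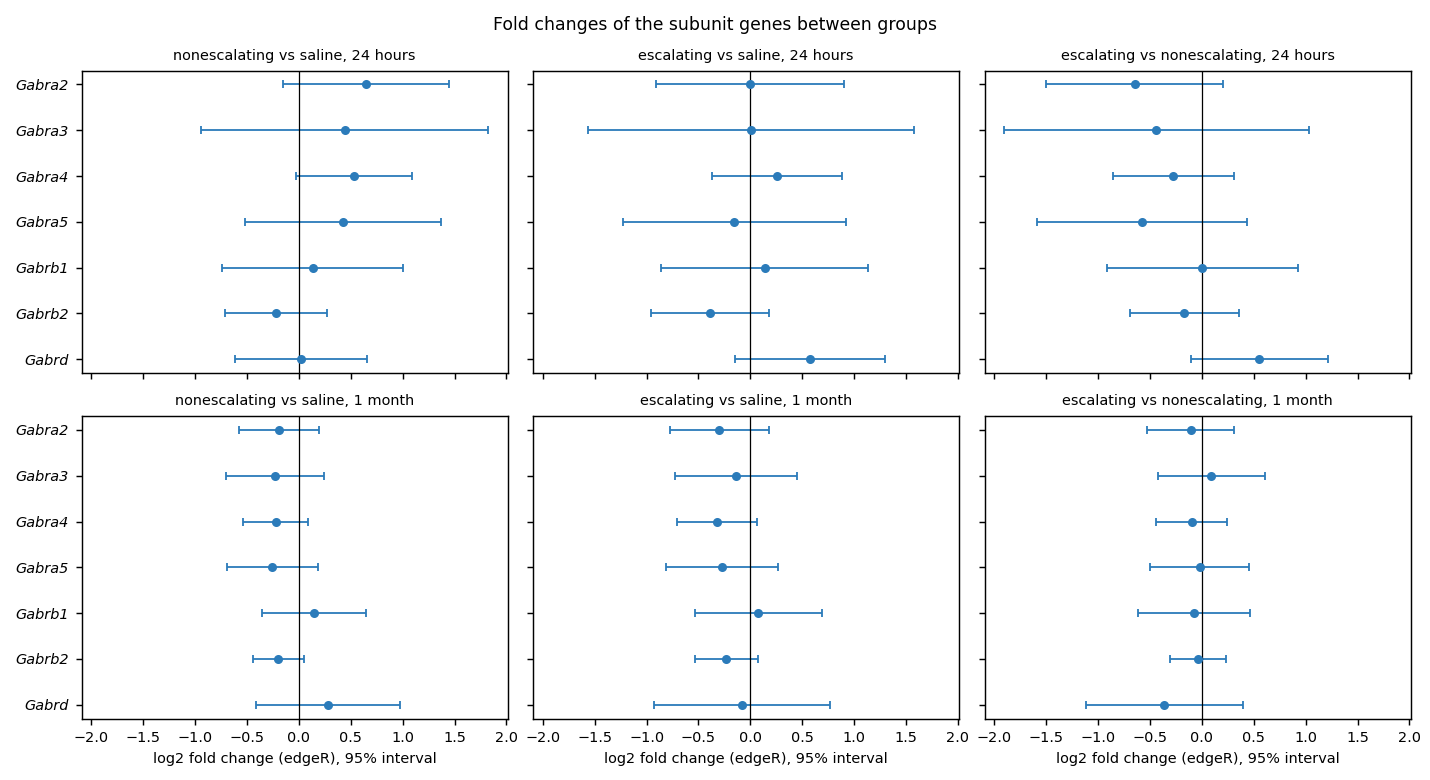
Log2 fold changes of the 7 subunit genes in the 6 group comparisons, points with 95% intervals from edgeR, 24 hours above and 1 month below. All 42 intervals include 0, and at 1 month those of Gabrd are wider and those of the other genes narrower, as for Gabra4 in nonescalating against saline libraries (-0.54 to 0.09 against -0.03 to 1.09).

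Across time, saline libraries at 1 month were compared with those at 24 hours, and Gabra4 had the smallest p of the members. Its estimate was 0.71 ± 0.25 on the log2 scale (interval from 0.21 to 1.22, edgeR unadjusted p = 0.00668, adjusted p = 0.201), from 88.1 ± 42.8 CPM (SD, n = 6) to 145 ± 31.7 (SD, n = 5). It was the only 1 of 7 members with an unadjusted p under 0.05, against 13% of all genes, and 0.398% of all genes had groups without overlap. Gabra2 had 0.66 ± 0.34 and Gabra3 0.75 ± 0.57. Without libraries 1573, 1574 and 1582 Gabra4 had 0.42 ± 0.21 (edgeR unadjusted p = 0.0557, adjusted p = 0.659) and Gabra2 0.84 ± 0.34 (edgeR unadjusted p = 0.0166, adjusted p = 0.557). The saline libraries then left at 24 hours held 32.8, 33.0 and 30.1 CPM of Gabra2 and, in library 1575, 4.17. The Gabra2 estimate thus leans on library 1575. Time cannot be told apart from any difference in preparation, since the sequencing sample numbers in the labels restart at each time. In nonescalating libraries Gabrd had 0.55 ± 0.28 (edgeR unadjusted p = 0.0537), 0.28 ± 0.26 without library 1597, and the other members between -0.34 and 0.20. In escalating libraries 6 of 7 estimates were positive, against 46.0% over all genes, up to 0.59 ± 0.64 for Gabra3, and Gabrd had -0.36 ± 0.41. 0 of 7 members had an unadjusted p under 0.05 in either, against 4.64% and 1.72% of all genes. Groups without overlap made up 0.0% and 1.15% of all genes in these 2 comparisons.

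How the contrasts with saline changed from 24 hours to 1 month was tested in 1 fit over 39 libraries. The change of the nonescalating contrast was estimated at -0.76 ± 0.32 for Gabra4 (edgeR unadjusted p = 0.0203, adjusted p = 0.397) and at -0.85 ± 0.42 for Gabra2 (interval from -1.70 to 0.01). Mean Gabra4 was 127 CPM at 24 hours and 123 at 1 month in nonescalating libraries, and 88.1 and 145 in saline libraries. The estimates at 24 hours, across time in saline libraries and for this change share saline libraries, so they are not separate results. Gabra4 was 1 of 7 members with an unadjusted p under 0.05, against 9.8% of all genes. Without the same 3 libraries Gabra4 had -0.47 ± 0.26 (edgeR unadjusted p = 0.0822, adjusted p = 0.797) and Gabra2 -0.89 ± 0.41 (edgeR unadjusted p = 0.0346, adjusted p = 0.768). No member had one for the change of the escalating contrast, against 4.94% of all genes, or for the change of the escalating against nonescalating contrast, against 2.3%. In the last, Gabrd had the largest estimate in size, -0.91 ± 0.49 (interval from -1.91 to 0.08). It includes nonescalating library 1597 at 1 month, with 179 CPM of Gabrd against 25.4 to 93.3 in the others of its group.

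Of the 12 other subunit genes, 6 were tested in each group comparison, and none was called. The following values have edgeR adjusted p of 0.41 or higher. In escalating against nonescalating libraries at 1 month Gabrg1, which encodes a gamma subunit, had -0.44 ± 0.33. At 24 hours Gabrg1 had -1.10 ± 0.54 in nonescalating and -1.36 ± 0.65 in escalating against saline libraries, where saline library 1574 alone held 180 CPM and the group median was 19.02. Gabrg3 had -0.46 ± 0.41 in nonescalating against saline libraries at 24 hours. Gabrq, which encodes the theta subunit, had 1.91 ± 1.20 in escalating against nonescalating libraries at 24 hours. Its levels were low, at 5.52 ± 4.76 CPM (SD, n = 5) and 1.46 ± 1.83 CPM (SD, n = 9, median 0.39).

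The genes that place receptors at the membrane were followed beside them, 19 in all and all tested, with 0 called in each comparison. At 24 hours in escalating against saline libraries Shisa7, an auxiliary receptor subunit, had -0.72 ± 0.24 and Dmd, which encodes dystrophin of inhibitory synapses, -1.03 ± 0.39. Rdx, an anchor of extrasynaptic alpha5 receptors, had -0.83 ± 0.36 and Arfgef2 -0.53 ± 0.26 in nonescalating against saline libraries. In escalating against nonescalating libraries Shisa7 had -0.37 ± 0.22 and Plcl1 0.74 ± 0.61. At 1 month Slitrk3, a synaptic adhesion gene, had -0.39 ± 0.17 and Zdhhc3, which encodes a palmitoylating enzyme, 0.36 ± 0.20 in nonescalating against saline libraries. Dmd had -0.44 ± 0.30 and Plcl1 -0.71 ± 0.53 in escalating against saline libraries, and Dmd -0.73 ± 0.28 and Zdhhc3 -0.52 ± 0.22 in escalating against nonescalating libraries. Between 4 and 15 of the 19 estimates were positive, depending on the comparison. The chloride carriers set the driving force of the channel: Slc12a5, which extrudes chloride, had estimates from -0.45 ± 0.26 (escalating against saline, 24 hours) to 0.14 ± 0.12 over the 6 group comparisons within a time. Slc12a2, which loads chloride, had -0.80 ± 0.42 in nonescalating against saline libraries at 24 hours and -1.18 ± 0.53 in escalating libraries at 1 month against 24 hours. Slc12a2 had 1.04 ± 0.44 in escalating against nonescalating libraries at 24 hours, with 23.3 ± 11.7 CPM (SD, n = 5) and 11.3 ± 2.76 CPM (SD, n = 9). Saline libraries at that time held 19.5 ± 9.79 CPM (SD, n = 6), and escalating against saline gave 0.25 ± 0.49. These comparisons at 24 hours share libraries.

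The 7 genes did not vary as 1 block. The SD of log2 CPM over 39 libraries was lowest for Gabrb2 (0.35) and Gabra4 (0.48) and highest for Gabra3 (1.43), against a median of 0.67 over 8582 genes with a mean of at least 10 CPM. Without libraries 1573, 1574 and 1582 Gabra3 had 0.67 against a median of 0.50. Spearman's rho between member pairs, over 39 libraries that differ in depth and group, ran from -0.34 (Gabra2 and Gabrd) to 0.48 (Gabra4 and Gabra5). Gabra2 and Gabra5 had 0.46, Gabra3 and Gabrb2 0.43, and Gabra4 and Gabrd 0.12. These are descriptions of the libraries.

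**Figure D5:**
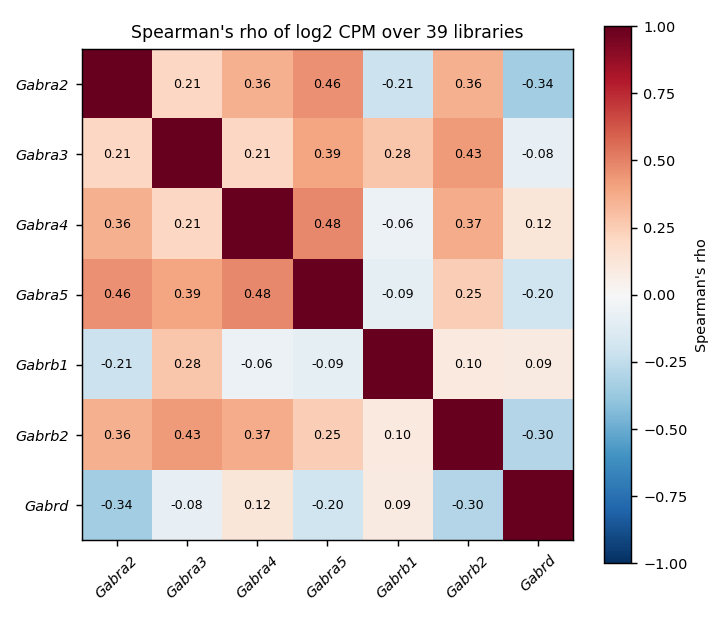
Spearman's rho of log2 CPM between the 7 subunit genes over 39 libraries, colour from -1 to 1. The alpha genes correlate positively with each other, and Gabrd has negative values with Gabra2 (-0.34) and Gabrb2 (-0.30).

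The genes most like each member, by Spearman's rho of log2 CPM over the same 39 libraries, were Kif3a (0.85), Pde1a (0.79) and Peg10 (0.76) for Gabra5. For Gabrd they were Ppm1a (0.76), Cry2 (0.71) and Cdkn2d (0.67), and for Gabrb1 Pfkm (0.75), Ppp1ca (0.70) and Abat (0.68). For Gabra4 they were Dnm1l (0.74), Tomm20 (0.72) and Slc2a13 (0.72). For Gabrb2 they were Txnl1, Bcap29 and Smek2 (each 0.68), for Gabra2 Tmem47 (0.67), Arl6 (0.65) and Gnaq (0.64), and for Gabra3 Tgoln1 (0.67), Fam98a (0.66) and Zfp711 (0.66). The mean vascular marker level had negative values with Gabra5 (rho -0.56, and -0.51 without the 3 libraries) and Gabra2 (rho -0.44). Its rho was -0.42 with Gabra4, -0.39 with Gabra3, -0.32 with Gabrb2, -0.10 with Gabrb1 and 0.03 with Gabrd. The part of the vascular markers in the members' levels was not tested.

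Gabra4 and Gabrb1 lie head to head on chromosome 5, and their models overlap by 196 bases in GENCODE (71658113 to 71658308) and by 388 bases in RefSeq, so both starts fall within a short stretch. Of the exon bases, 46 are shared on opposite strands. Without a stated strand setting, reads there may not be separable, but they are 0.756% of the Gabra4 and 0.332% of the Gabrb1 exon bases. Gabra5 shares 148 exon bases (4.98%) with Gm9962 on the other strand. Across libraries the levels of Gabra4 and Gabrb1 had a rho of -0.06. The RefSeq windows from 250 bases before to 50 after the start (GRCm38.p6) were found for 6 of 7 members, and Gabrd had none. Those of Gabra4 and Gabrb1 are shown because they reach into the RefSeq overlap from its 2 ends, and that of Gabrb2 because it is the other window with a match. They were searched on both strands for the EGR motif GCGNGGGCG, the cAMP response element TGACGTCA, its core TGACG and the AP-1 motif TGANTCA, and capitals mark matches:
Gabra4, chr5:71658259-71658558, minus strand: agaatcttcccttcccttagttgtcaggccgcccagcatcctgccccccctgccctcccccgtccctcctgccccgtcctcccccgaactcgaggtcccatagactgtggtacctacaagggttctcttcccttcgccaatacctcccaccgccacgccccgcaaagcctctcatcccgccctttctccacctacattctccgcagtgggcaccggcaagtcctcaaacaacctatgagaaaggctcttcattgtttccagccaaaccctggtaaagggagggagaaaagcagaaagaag
Gabrb1, chr5:71657671-71657970, plus strand: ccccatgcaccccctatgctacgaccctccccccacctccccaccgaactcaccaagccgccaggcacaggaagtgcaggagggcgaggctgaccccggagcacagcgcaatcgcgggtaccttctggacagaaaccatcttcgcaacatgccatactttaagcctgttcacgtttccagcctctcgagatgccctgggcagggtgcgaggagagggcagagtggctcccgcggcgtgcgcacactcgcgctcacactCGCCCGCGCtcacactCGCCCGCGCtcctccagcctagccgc
Gabrb2, chr11:42420190-42420489, plus strand: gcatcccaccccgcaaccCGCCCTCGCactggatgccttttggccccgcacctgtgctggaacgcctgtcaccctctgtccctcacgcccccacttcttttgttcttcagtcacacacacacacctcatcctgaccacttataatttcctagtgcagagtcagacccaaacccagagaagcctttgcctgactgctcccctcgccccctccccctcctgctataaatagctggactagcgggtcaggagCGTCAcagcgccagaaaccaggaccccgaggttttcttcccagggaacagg

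The Gabrb1 window held 2 EGR matches and the Gabrb2 window 1 EGR match and 1 TGACG core, while the Gabra4 window and the other windows of the 6 genes held none of the 4. The EGR motif was in 5.55% of 32851 windows of this kind, the TGACG core in 20.8%, the full element in 1.79% and AP-1 in 7.81%. GC content was 58.7% in the Gabra4 and 66.0% in the Gabrb1 window, against a median of 52.7% over all windows. A match is a run of letters in the window and says nothing of binding.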

How the data were processed

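The values the authors deposited are raw read counts by gene symbol. STAR 2.0.0e (alignment, mm10) and HTSeq (counting) are the tools named in the submitters' processing notes. The sources used here do not give the annotation or the strand setting. Summary lines and the unnamed row were left out. Reads outside features made up 18.65% to 70.3% and ambiguous reads 1.76% to 4.93% of uniquely placed reads.

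Counts were scaled by TMM and tested with edgeR 4.0.16 under R 4.3.3 (filterByExpr minimum count 10, robust quasi-likelihood F test, two-sided, Benjamini-Hochberg, threshold 0.05). Each time point was fitted alone (14137 and 14181 genes). Time comparisons used 39 libraries (15579 genes). Libraries were grouped from their own labels. The scripts were tested on simulated data. Alternatives were DESeq2 1.42.0, its size factors, no filter, the replicate block, other library sets and other gene lengths. Named genes were the members and the 2 smallest p-values per list and comparison. Some genes that this rule names are not reported here. Members and lists were chosen with earlier results of these data known. In 122 pairs of libraries of 1 group, chi-square per gene was 12.8 to 309, so none repeated another's counts.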

Additional observations from a re-analysis of the deposited data

Results flagged for a closer look

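In 5 of 42 sets of 1 gene in 1 group, a single library lay apart from the others by Dixon's test. For normally distributed values chance marks about 1 in 20 such sets. Gabra2 had 4.17 CPM in saline library 1575 at 24 hours, where the other 5 lay between 29.8 and 40.5. Gabrb2 had 606 CPM in saline library 1572 at 24 hours, against 159 to 299 in the others. Gabra4 had 200.01 CPM in saline library 1591 at 1 month, against 125 to 142, and Gabra5 had 89.8 CPM in saline library 1592, against 60.5 to 66.2. Gabrd had 179 CPM in nonescalating library 1597 at 1 month, against 25.4 to 93.3. Of these, 4 of 5 were saline libraries. The share of such sets over all genes is not given, so these counts show nothing particular to the members or to saline libraries.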

How the results depend on the processing

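No member passed the adjusted threshold under any alternative run for the 12 comparisons: 0 were called in 72 values under other settings and in 351 values with 1 library left out. Over all genes the count of calls did depend on the tool. It was 0 with edgeR as reported and, with DESeq2, 164, 8 and 3 at 24 hours for the nonescalating and escalating contrasts with saline and for escalating against nonescalating. DESeq2 called 8 genes for nonescalating against saline at 1 month, 583, 3 and 6 genes for saline, nonescalating and escalating libraries across time, and 109, 10 and 6 genes for the changes. With both times in 1 fit, edgeR called 129 genes for nonescalating against saline at 24 hours. With 1 library left out, edgeR called genes for saline libraries across time without 1570 (31 genes), 1571 (60 genes) or 1572 (99 genes). The cause was not tested. Of the members' log2 fold changes, 24 values of 15 results changed sign under other settings, most of them from estimates near 0. N, S and E stand for nonescalating, saline and escalating.
Without libraries 1573, 1574 and 1582 the sign changed for Gabra5 -0.099 and Gabrd -0.061 (N vs S, 24 h), Gabra2 0.20 and Gabra3 -0.41 and Gabra4 -0.027 (E vs S, 24 h), Gabrb1 -0.12 (E vs N, 24 h), Gabra5 -0.11 (S, 1 month vs 24 h), Gabra3 -0.092 (N, 1 month vs 24 h), Gabrb1 -0.11 (change of N vs S from 24 h to 1 month), Gabra3 0.26 and Gabra5 0.32 (change of E vs S from 24 h to 1 month), Gabrb1 0.039 (change of E vs N from 24 h to 1 month). With DESeq2's size factors the sign changed for Gabrd -0.032 (N vs S, 24 h). With DESeq2 the sign changed for Gabrd -0.032 (N vs S, 24 h). With no filter on low counts the sign changed for Gabra2 0.0035 (E vs S, 24 h), Gabrb1 -0.0030 (E vs N, 24 h), Gabrb1 -0.013 (change of N vs S from 24 h to 1 month). With both times in 1 fit the sign changed for Gabra2 0.0067 (E vs S, 24 h). With the replicate block the sign changed for Gabrb2 0.031 (E vs N, 1 month), Gabra4 0.00066 (N, 1 month vs 24 h), Gabrb1 -0.12 (change of N vs S from 24 h to 1 month), Gabrb1 0.050 (change of E vs N from 24 h to 1 month). With library 1595 kept the sign changed for Gabrb1 -0.028 and Gabrb2 -0.017 (change of N vs S from 24 h to 1 month).
With the replicate number as a block, Gabra4 in escalating against saline libraries at 1 month had -0.37 (edgeR unadjusted p = 0.0435, adjusted p = 0.998), and no member was called. After each gene's group mean of log2 CPM was subtracted, same-numbered saline and escalating libraries had Pearson correlations of -0.05 to 0.30 at 24 hours. At 1 month these correlations ran from -0.07 to 0.19, and not every pair lay above 0.1. Differently numbered pairs were not compared, so these values cannot show whether the numbers pair samples. Only saline and escalating libraries were checked, since nonescalating numbers repeat, and the numbers are not taken as a pairing. Leaving out 1 library at a time changed the sign in 30 results, with these ranges. In N vs S, 24 h: Gabrb1 -0.0048 to 0.35, Gabrb2 -0.35 to 0.12, Gabrd -0.11 to 0.17. In E vs S, 24 h: Gabra2 -0.23 to 0.13, Gabra3 -0.26 to 0.39, Gabra5 -0.66 to 0.10. In E vs N, 24 h: Gabrb1 -0.13 to 0.17. In E vs S, 1 month: Gabra3 -0.24 to 0.049, Gabrd -0.30 to 0.25. In E vs N, 1 month: Gabra4 -0.19 to 0.016, Gabra5 -0.17 to 0.13, Gabrb1 -0.17 to 0.026, Gabrb2 -0.10 to 0.041. In S, 1 month vs 24 h: Gabrb2 -0.19 to 0.29, Gabrd -0.024 to 0.51. In N, 1 month vs 24 h: Gabra3 -0.094 to 0.18, Gabrb2 -0.095 to 0.0066. In E, 1 month vs 24 h: Gabra4 -0.053 to 0.24, Gabra5 -0.045 to 0.71, Gabrb1 -0.062 to 0.25, Gabrb2 -0.022 to 0.22. For the change of N vs S from 24 h to 1 month: Gabrb1 -0.24 to 0.14, Gabrb2 -0.34 to 0.14, Gabrd -0.026 to 0.57. For the change of E vs S from 24 h to 1 month: Gabra3 -0.54 to 0.11, Gabra5 -0.40 to 0.37, Gabrb1 -0.33 to 0.061, Gabrb2 -0.21 to 0.28. For the change of E vs N from 24 h to 1 month: Gabra4 -0.0014 to 0.28, Gabrb1 -0.26 to 0.052. Gene length moved 9 levels per kilobase by more than their SD, 7 with the longest coding sequence and 2 with the longest transcript. Counts per member and library ran from 0 to 9444, and depth limits the lowest most.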
